A study of Homo sapiens with 6 samples.

Results

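The accessibility of chromatin at 9 genes of glucose uptake and sensing was read from ATAC-seq of senescent and non-senescent cells of EndoC-βH3, a beta cell line of human origin. The genes are those of the glucose transporters SLC2A1, SLC2A2 and SLC2A3, the regulator gene GCKR, the enzyme genes G6PC2, PFKFB2, PC and GLUD1, and the uncoupling protein gene UCP2. A region was counted as a promoter region of a member when it overlapped 2 kb on either side of the start site of one of its protein-coding transcripts. It was counted as distal when it lay elsewhere, the nearest protein-coding start site to its middle was that of a member and the distance was at most 100 kb. By this rule 44 of the 108542 regions in the authors' deposited table belonged to these 9 genes, 12 as promoter regions and 32 as distal regions. A promoter region was found for 8 of the 9 genes, all but SLC2A3, and a distal region for 7 of the 9, all but GCKR and G6PC2.

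ATAC-seq uses a transposase that inserts adapters into open DNA, so that reads pile up over accessible regions. All libraries came from a single cell line labelled as WT and as pancreatic beta cells, grown in low-glucose medium. The 3 senescent libraries were from cells given 4-hydroxytamoxifen (4-OHT) for 3 weeks, which activates the CreER recombinase and cuts out the immortalizing hTERT and SV40 large T transgenes. The 3 non-senescent libraries were from control cells that kept both transgenes, so that transgene loss, drug and senescence cannot be told apart. Each library was made from 100000 cells.

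Glucose enters beta cells through facilitative transporters of the SLC2A (GLUT) family, down its concentration gradient. It is then phosphorylated, broken down to pyruvate and fed into mitochondrial metabolism, and the ATP produced closes potassium channels, which leads to calcium entry and insulin release. Genes of entry, phosphorylation and pyruvate use therefore lie on the path from glucose to insulin release, though not every step limits its rate.

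The table gave each region the authors' mean signal, which is the normalised read count averaged over the 6 libraries, together with a log2 fold change between the groups, its standard error (SE) and an adjusted p from DESeq2. There was no value for a single library, so that levels per library, overlap between the groups and the depth behind each library cannot be shown, and the SE is the only measure of error, from 3 against 3 libraries. Whether the replicates were separate cultures is not stated, so the SE covers the spread between these libraries, which may be technical. The direction of the fold change is not stated in the table, and the senescent group was read as its numerator. MKI67, a proliferation gene, had 2 promoter regions with log2 fold changes of -1.35 and -0.53 in that reading, and every direction given here rests on it. A region was called higher or lower at an adjusted p under 0.05 together with a fold change over 1.5, and only called regions are said to rise or fall. A change in signal may come from more or fewer cells with an open site or from its opening in each cell, and bulk libraries cannot tell these apart.

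As a description beside the label, all 12 beta cell marker genes had a promoter region, with mean signals from 405 to 4613. They include the transcription factor genes PDX1 and NKX6-1. Regions were also found at 3 of 3 alpha cell markers (53.4 to 1340), 3 of 4 acinar markers (8.99 to 2101), 2 of 3 duct markers (131 to 1059) and 3 of 4 hepatocyte markers (167 to 539). PRSS1, CFTR and ALB had none, as did 21.3% of 19676 protein-coding genes. Most genes of any kind thus had a promoter region, so that having one does little to tell cell types apart. An open promoter does not show that a gene is transcribed, and the part of other cell types in the results was not tested.

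The sequences of 7 regions on which the results turn are shown first, from the hg38 genome on the strand of the gene, up to 300 bases around the middle of each region. Capitals mark matches to any of 13 short motifs sought on both strands, which are the E-box (CACGTG), the HIF core (ACGTG), the GC box (GGGCGG), the CCAAT box (CCAAT), and sites of homeodomain factors (TAATTA), FOX factors (TGTTTAC), AP-1 (TGANTCA), MAF factors (TGCTGA) and E2F (TTCCCGC). The others are the CTCF core (AGGNGGC) and parts of the sites of NRF1 (GCGCATG), HNF1 (GTTAATN) and RFX factors (GTTGCCA), and the MAF site too is a part of a longer one. The E-box holds the HIF core within it. The first is the promoter region of SLC2A2 next to its start site, the 1 called promoter region of the set, at chr3:171026777-171027076 on the minus strand. It holds 2 MAF sites, at bases 1 to 6 and 175 to 180 of the run, and a CCAAT box at bases 56 to 60.
SLC2A2 promoter: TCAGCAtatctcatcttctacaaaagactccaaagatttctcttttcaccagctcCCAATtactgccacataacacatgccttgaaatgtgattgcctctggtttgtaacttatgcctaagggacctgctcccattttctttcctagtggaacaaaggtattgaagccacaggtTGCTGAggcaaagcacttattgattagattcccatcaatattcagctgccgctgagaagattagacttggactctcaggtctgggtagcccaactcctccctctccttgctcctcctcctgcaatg

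The next pair are the distal regions with the most precise fall and the most precise rise. The fall lay upstream of SLC2A1, at chr1:42963124-42963423 on the minus strand, and the rise in an intron of PFKFB2, at chr1:207056777-207056993 on the plus strand. Neither run holds a match to any of the 13 motifs, which says only that these letters are absent from the stretch shown.
SLC2A1 upstream: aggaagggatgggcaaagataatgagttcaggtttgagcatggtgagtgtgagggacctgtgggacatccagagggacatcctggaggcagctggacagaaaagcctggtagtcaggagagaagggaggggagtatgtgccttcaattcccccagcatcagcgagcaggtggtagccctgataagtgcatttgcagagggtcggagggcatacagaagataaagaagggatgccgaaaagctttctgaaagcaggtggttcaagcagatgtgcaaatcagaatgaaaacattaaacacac
PFKFB2 intron: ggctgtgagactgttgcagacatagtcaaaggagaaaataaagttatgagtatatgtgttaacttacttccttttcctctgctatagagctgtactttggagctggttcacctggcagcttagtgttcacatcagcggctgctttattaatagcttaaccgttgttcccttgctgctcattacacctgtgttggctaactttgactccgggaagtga

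The pair with the largest fold changes lay far upstream of SLC2A2 in introns of TNIK, at chr3:171121176-171121475 and chr3:171115772-171116034, both given on the minus strand. Both hold a MAF site and a CCAAT box, the first also holds the AP-1 site TGAGTCA at bases 90 to 96, and the second a CTCF core and, at its end, a HIF core. That core is the first part of an E-box whose last base lies outside the region, and which is counted among the E-boxes below since motifs were counted over 300 bp.
SLC2A2 upstream, first: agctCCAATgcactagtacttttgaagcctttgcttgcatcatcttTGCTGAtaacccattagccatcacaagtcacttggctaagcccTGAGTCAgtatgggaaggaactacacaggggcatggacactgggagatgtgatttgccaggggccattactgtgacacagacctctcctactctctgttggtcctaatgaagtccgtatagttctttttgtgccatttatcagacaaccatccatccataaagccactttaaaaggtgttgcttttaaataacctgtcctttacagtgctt
SLC2A2 upstream, second: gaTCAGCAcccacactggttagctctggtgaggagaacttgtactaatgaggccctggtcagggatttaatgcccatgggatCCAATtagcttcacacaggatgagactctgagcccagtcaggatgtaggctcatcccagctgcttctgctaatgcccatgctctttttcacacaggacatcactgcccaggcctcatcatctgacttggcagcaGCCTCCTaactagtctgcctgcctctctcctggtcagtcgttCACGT

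The last pair are the regions of UCP2 whose fold changes had opposite signs, at chr11:73983098-73983397 and chr11:73980139-73980438 on the minus strand. The stretch just upstream of the start site holds 2 CCAAT boxes and a GC box, and the intronic stretch a CCAAT box and a CTCF core.
UCP2 upstream: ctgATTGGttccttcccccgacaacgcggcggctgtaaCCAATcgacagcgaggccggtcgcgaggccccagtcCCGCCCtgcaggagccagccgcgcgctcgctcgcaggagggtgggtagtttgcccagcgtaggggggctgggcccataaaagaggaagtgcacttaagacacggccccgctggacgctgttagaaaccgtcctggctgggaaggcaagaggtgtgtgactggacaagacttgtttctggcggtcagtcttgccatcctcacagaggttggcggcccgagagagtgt
UCP2 intron: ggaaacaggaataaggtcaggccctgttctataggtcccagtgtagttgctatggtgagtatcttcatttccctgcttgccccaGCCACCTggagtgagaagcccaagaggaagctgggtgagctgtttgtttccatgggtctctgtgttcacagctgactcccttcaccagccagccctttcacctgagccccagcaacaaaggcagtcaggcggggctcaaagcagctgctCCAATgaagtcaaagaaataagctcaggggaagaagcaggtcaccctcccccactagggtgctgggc

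Across the 9 genes, more distal regions than promoter regions were called, which is also true of all genes. Distal regions were also the more numerous in both cases. Of the 12 promoter regions, 1 was called higher and 0 lower. Among all 20094 promoter regions, 3.56% were called higher and 9.04% lower. On the adjusted p alone, without the fold limit, 4 of the 12 were higher and 2 lower, against 10.2% and 34.7% of all promoter regions. Of the 32 distal regions, 5 (15.6%) were called higher and 4 (12.5%) lower, close to the 17.4% and 10.9% of the 55158 distal regions within 100 kb of a gene. On the adjusted p alone the same counts were 5 and 8, against 23.0% and 19.7%. The share of distal regions called thus lay near that of all genes.

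A stricter test asked whether the fold change itself exceeded 1.5. The test called 3 of the 32 distal regions higher and 1 lower, against 4.43% and 2.01% of all distal regions near a gene. It called 0 of the 12 promoter regions, against 0.851% higher and 1.31% lower among all promoter regions. It kept the rises at the pair of regions far upstream of SLC2A2 (adjusted p 0.00265 and 0.0474) and in the intron of PFKFB2 (adjusted p 0.0192), and the fall 4405 bp upstream of SLC2A1 (adjusted p 4.28e-09). The other called regions did not pass it, with adjusted p between 0.267 and 1.

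By gene, 1 of the 8 members with a promoter region had one called higher and 0 had one called lower, against 4.47% and 11.0% of 15493 genes. Of the 7 members with distal regions, 4 had at least 1 called higher and 3 at least 1 called lower, against 42.2% and 29.7% of 13211 genes. These shares are not on equal numbers of regions, since a gene with more regions can more easily have 1 called. SLC2A1 had 12 distal regions and SLC2A2 10, more than 96.2% and 93.9% of protein-coding genes. The median log2 fold change of the 12 promoter regions was 0.04 (range -0.49 to 0.89), beside -0.13 over all promoter regions. That of the 32 distal regions was -0.05 (range -1.03 to 2.03), beside 0.03 over all distal regions near a gene.

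**Figure D1:**
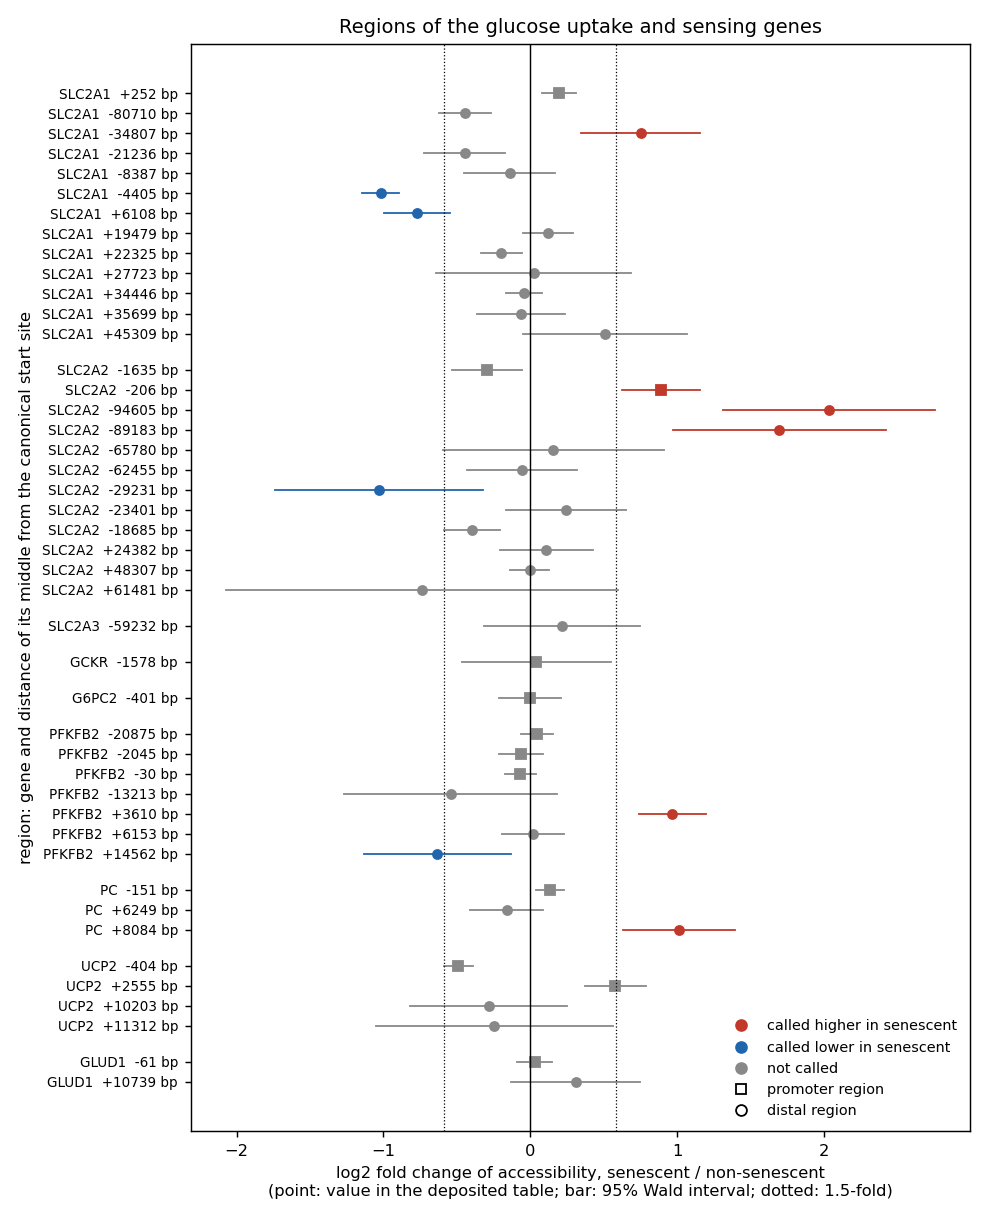
Log2 fold change of accessibility (x axis, senescent over non-senescent) for each of the 44 regions of the 9 genes (y axis, with the distance of the region's middle from the canonical start site). Points are the deposited values (squares promoter, circles distal), bars are 95% Wald intervals and dotted lines mark 1.5-fold. Called regions are coloured, with 1 promoter and 5 distal regions higher and 4 distal regions lower.

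The transporter genes held 26 of the 44 regions and 7 of the 10 called ones. Most of the 26 were distal, and of all distal regions within 100 kb of a gene 17.4% were called higher and 10.9% lower. The share of the 26 that was called lay near that background. SLC2A1 encodes GLUT1, the main glucose transporter of human beta cells and of most dividing cells. Its promoter region (chromosome 1, 42957804 to 42959428, middle 252 bp into the gene) had a mean signal of 1686, or 1037 per kb, above 79.8% of all promoter regions. Its log2 fold change was 0.19 (SE 0.059, adjusted p 0.0036), with a 95% interval of 0.08 to 0.31 that lies within 1.5-fold. The promoter of SLC2A1 was therefore open in the pooled mean and differed between the groups by only 1.14-fold.

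The region 4405 bp upstream of that start site behaved differently. This intergenic region (chromosome 1, 42962693 to 42963854, sequence above) had a mean signal of 1088 and a log2 fold change of -1.02 with an SE of 0.065 (adjusted p 3.49e-52), so that it fell 2.03-fold (95% interval 1.86 to 2.22). If the fold change was not shrunken and the groups weigh equally in the mean, this corresponds to about 1457 normalised reads in non-senescent and 719 in senescent cells. The region also lies in the promoter window of an annotated gene that does not code for protein. A second region, in the first part of SLC2A1, fell as well. It lies in an intron 6108 bp downstream of the start site (42952309 to 42953211), with a mean signal of 336 and a log2 fold change of -0.77 with an SE of 0.12 (adjusted p 4.78e-10). Its middle is 119 bp from the start of ATP6V0CP4, an annotated gene that does not code for protein. It also lies in the promoter window of an SLC2A1 transcript that is not annotated as protein-coding.

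One weaker distal region of SLC2A1 rose. It is 34807 bp upstream (42993490 to 42993861, intergenic), with a mean signal of 83.9 and a log2 fold change of 0.75 with an SE of 0.21 (adjusted p 0.00109). The strongest distal region, 34446 bp downstream of the start site beyond the gene's end, had a mean signal of 1473 and a log2 fold change of -0.04 with an SE of 0.063 (adjusted p 0.633). Its 95% interval of -0.17 to 0.08 lies well within 1.5-fold. The middle of this region is 38 bp from the start of an annotated gene that does not code for protein. The region 35699 bp downstream lies in the promoter window of that gene too. SLC2A1 had 12 distal regions in all, more than 96.2% of 19676 protein-coding genes. Of the other 8, those 80710 and 21236 bp upstream both had a log2 fold change of -0.45 (adjusted p 5.04e-06 and 0.00528) and that 22325 bp downstream one of -0.20 (adjusted p 0.0155), short of the fold limit. The remaining 5 had log2 fold changes between -0.14 and 0.51 and adjusted p of 0.142 or more.

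SLC2A2 encodes GLUT2, the high-capacity transporter of liver and of rodent beta cells, which is also made in human beta cells. It held the 1 called promoter region. This region (chromosome 3, 171026681 to 171027171, middle 206 bp upstream of the start site, sequence above) had a mean signal of 211 and a log2 fold change of 0.89 with an SE of 0.14 (adjusted p 8.57e-10), a rise of 1.86-fold (95% interval 1.54 to 2.23). This interval, which is not adjusted for the number of regions, lies above 1.5-fold, while the stricter test gave an adjusted p of 0.267. On the same assumptions the rise corresponds to about 148 normalised reads in non-senescent and 274 in senescent cells. Per kb its mean signal of 429 was above 44% of promoter regions, below the middle of all promoters. The neighbouring promoter region 1635 bp upstream (171027860 to 171028851) had a log2 fold change of -0.29 with an SE of 0.12 (adjusted p 0.041), the opposite sign and short of the limit. The 95% intervals of this pair, 0.63 to 1.16 and -0.53 to -0.05, do not overlap.

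At a distance, SLC2A2 had the largest fold changes of the set and also its faintest region. A region 94605 bp upstream (171121109 to 171121541) had a log2 fold change of 2.03 with an SE of 0.37 (adjusted p 3.46e-07), a 4.10-fold rise with a 95% interval of 2.48 to 6.76. A region 89183 bp upstream (171115772 to 171116034) had one of 1.70 (SE 0.37, adjusted p 3.00e-05), a 3.24-fold rise. Both lie in introns of TNIK, a kinase gene, and their mean signals were only 35.1 and 33.3. Their assignment to SLC2A2 rests on the nearest start site alone, and with a limit of 50 kb neither would belong to it. A region 29231 bp upstream (171055782 to 171056121, intergenic) fell, with a mean signal of 31.2 and a log2 fold change of -1.03 with an SE of 0.36 (adjusted p 0.0134). Its middle is 8091 bp from the start of a non-coding TNIK transcript, nearer than SLC2A2. The regions 65780, 62455, 23401 and 18685 bp upstream are likewise nearer to a start of such TNIK transcripts.

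The stronger distal regions of SLC2A2 were not called. The strongest, 48307 bp downstream of the start site and past the gene's end, had a mean signal of 1100 and a log2 fold change of -0.0037 with an SE of 0.068 (adjusted p 0.972), with a 95% interval of -0.14 to 0.13. The next, 18685 bp upstream, had a mean signal of 403 and a log2 fold change of -0.40 with an SE of 0.097 (adjusted p 0.000219), short of the limit. The other 5 of its 10 distal regions had log2 fold changes from -0.74 to 0.24 and adjusted p of 0.356 or more, and the faintest of them, with a mean signal of 8.76, had an SE of 0.68, so that a change there was not detectable.

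**Figure D2:**
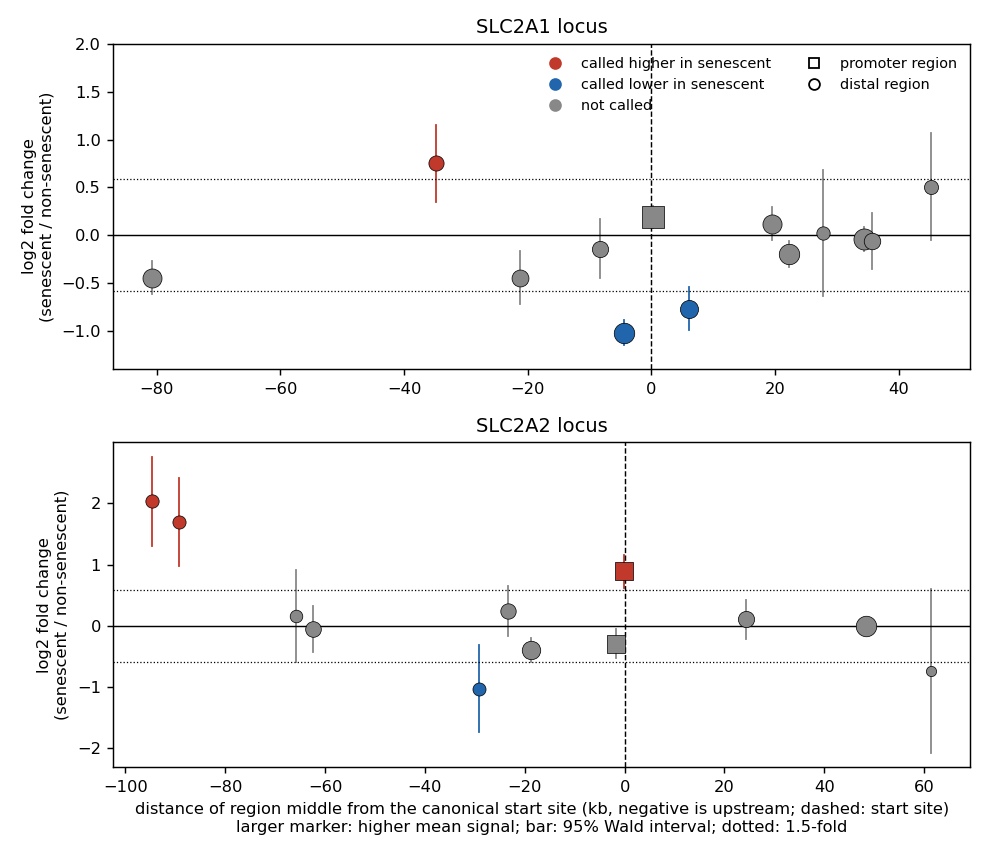
Log2 fold change (y axis, senescent over non-senescent) of every region assigned to SLC2A1 (top) and SLC2A2 (bottom) against the distance of its middle from the canonical start site in kb (x axis, negative upstream). Squares are promoter and circles distal regions, sized by mean signal, with 95% Wald intervals. At SLC2A1 the regions 4405 bp upstream and 6108 bp downstream fell, on either side of a promoter at 0.19, and that 34807 bp upstream rose. At SLC2A2 the promoter region 206 bp upstream and the pair farthest upstream rose, and the region 29231 bp upstream fell. The other promoter region of SLC2A2 was at -0.29 and not called.

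SLC2A3 encodes GLUT3, a transporter of high affinity best known from neurons. It had no promoter region in the table. Its 1 region lay in an intron of transcripts that start farther upstream (chromosome 12, 7995332 to 7995506), 59232 bp upstream of the canonical start site, with a mean signal of 62.3 and a log2 fold change of 0.22 with an SE of 0.27 (adjusted p 0.545). A copy elsewhere on chromosome 12 matched 172 bp of it at 98.8% identity, so that its reads may be shared with that copy.

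The genes around glucose phosphorylation had few regions. GCKR encodes a protein known in liver as a regulator of glucose phosphorylation. Its 1 promoter region (chromosome 2, 27494993 to 27495529) lies 1578 bp upstream of its start site and within 61 bp of that of FNDC4, so that it cannot be assigned to GCKR alone. The mean signal was 65.3 and the log2 fold change 0.04 (SE 0.26, adjusted p 0.914), with a 95% interval of -0.47 to 0.55. G6PC2 encodes an islet enzyme that turns glucose-6-phosphate back into glucose and so opposes phosphorylation. Its promoter region (chromosome 2, 168900290 to 168901491, middle 401 bp upstream, in an intron of SPC25) had a mean signal of 344 and a log2 fold change of -0.0014 with an SE of 0.11 (adjusted p 0.994). The 95% interval of -0.21 to 0.21 left room for a change of at most 1.16-fold either way.

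PFKFB2 encodes an enzyme that makes and breaks down fructose-2,6-bisphosphate, the main activator of phosphofructokinase in glycolysis. Its 3 promoter regions were strong and none was called. The region at the canonical start site (chromosome 1, 207052737 to 207053754) had a mean signal of 3190, the highest among the 44 regions, and a log2 fold change of -0.07 with an SE of 0.054 (adjusted p 0.312). The one 2045 bp upstream (207050755 to 207051705) had -0.06 (SE 0.077, adjusted p 0.528) and is nearest to the start of YOD1, a gene that shares both regions as promoter. The third (207031657 to 207033144), near a start site farther upstream and shared with C1orf116, had 0.05 (SE 0.055, adjusted p 0.529). The sign of each of these 3 small values turned when the trend on GC content was removed, and that of the first 2 also without the trend on mean signal.

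Within the gene, an intronic region of PFKFB2 rose. It lies 3610 bp downstream of the start site (207056777 to 207056993, sequence above), with a mean signal of 285 and a log2 fold change of 0.97 with an SE of 0.12 (adjusted p 1.66e-15), a rise with a 95% interval of 1.67-fold to 2.29-fold. On the assumptions above this is about 193 normalised reads in non-senescent and 377 in senescent cells. The neighbouring intronic region 6153 bp downstream, the strongest distal region of the gene with a mean signal of 351, had a log2 fold change of 0.02 with an SE of 0.11 (adjusted p 0.905). A weak intronic region 14562 bp downstream (207067598 to 207068076) fell, with a mean signal of 61.3 and a log2 fold change of -0.63 with an SE of 0.26 (adjusted p 0.0336). The fourth, 13213 bp upstream of the canonical start site, had a mean signal of 26.8 and a log2 fold change of -0.54 with an SE of 0.37 (adjusted p 0.237). Within this 1 gene there was thus a rise, a fall and a stronger region without a call.

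PC encodes pyruvate carboxylase, which feeds pyruvate into the citric acid cycle as oxaloacetate and is abundant in beta cells. Its promoter region (chromosome 11, 66958097 to 66958971, middle 151 bp upstream) had a mean signal of 3020, which per kb was above 99.6% of all promoter regions. The log2 fold change was 0.13 (SE 0.049, adjusted p 0.0193), a difference of 1.10-fold. A region 8084 bp into the gene (66950140 to 66950459), which overlaps an untranslated exon, rose with a mean signal of 108 and a log2 fold change of 1.01 with an SE of 0.19 (adjusted p 1.48e-06), or 2.02-fold with a 95% interval of 1.55 to 2.63. The other distal region, 6249 bp into the gene and the stronger at a mean signal of 238, had -0.16 (SE 0.13, adjusted p 0.316).

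UCP2 encodes a mitochondrial carrier that lowers the yield of ATP from glucose. Its pair of promoter regions had fold changes of opposite sign. The region over the start site (chromosome 11, 73982508 to 73983987, sequence above) had a mean signal of 2756 and a log2 fold change of -0.49 with an SE of 0.050 (adjusted p 8.26e-21), 1.41-fold lower and short of the limit. The region in an intron 2555 bp into the gene (73980136 to 73980441), within the window of a downstream start site, had a mean signal of 438 and a log2 fold change of 0.58 with an SE of 0.10 (adjusted p 3.36e-07). That is 1.49-fold higher, just short of the limit, which it passed when a trend on mean signal (0.68) or GC content (0.63) was removed. The 95% intervals of -0.59 to -0.39 and 0.37 to 0.79 do not overlap. Both distal regions of UCP2 were weak, with mean signals of 54.2 and 20.9, log2 fold changes of -0.28 (SE 0.27) and -0.24 (SE 0.41), and adjusted p of 0.419 and 0.665.

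GLUD1 encodes glutamate dehydrogenase, which feeds amino acid carbon into mitochondrial metabolism and is activated by leucine in beta cells. Its promoter region (chromosome 10, 87093920 to 87095888), shared with the divergent gene SHLD2, had a mean signal of 1675 and a log2 fold change of 0.03 with an SE of 0.061 (adjusted p 0.714), with a 95% interval of -0.09 to 0.15. Its 1 distal region, in an intron, had a mean signal of 73.5 and a log2 fold change of 0.31 with an SE of 0.22 (adjusted p 0.267). It has 2 copies in the genome, the best on chromosome 10 with 96.0% identity over 546 bp. The regions of GLUD1 and SLC2A3 were the 2 of the 44 with such a copy, at 90% identity over at least 50% of the length.

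The promoter regions had a higher mean signal, taken as a median, than promoters at large, which is given as a description. It was 1239, against 506 over all promoter regions, and per kb it was 944 against 507. For distal regions the median was 106.2 against 88.4, and per kb 298 against 187. In order of mean signal per kb the promoters ran from PC and the canonical start site of PFKFB2 at the top to GCKR at the bottom, and this order mixes both groups of cells since the mean is over all libraries. The median SE was 0.069 at the 12 promoter regions and 0.19 at the 32 distal regions, so that smaller differences could be resolved at promoters.

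**Figure D3:**
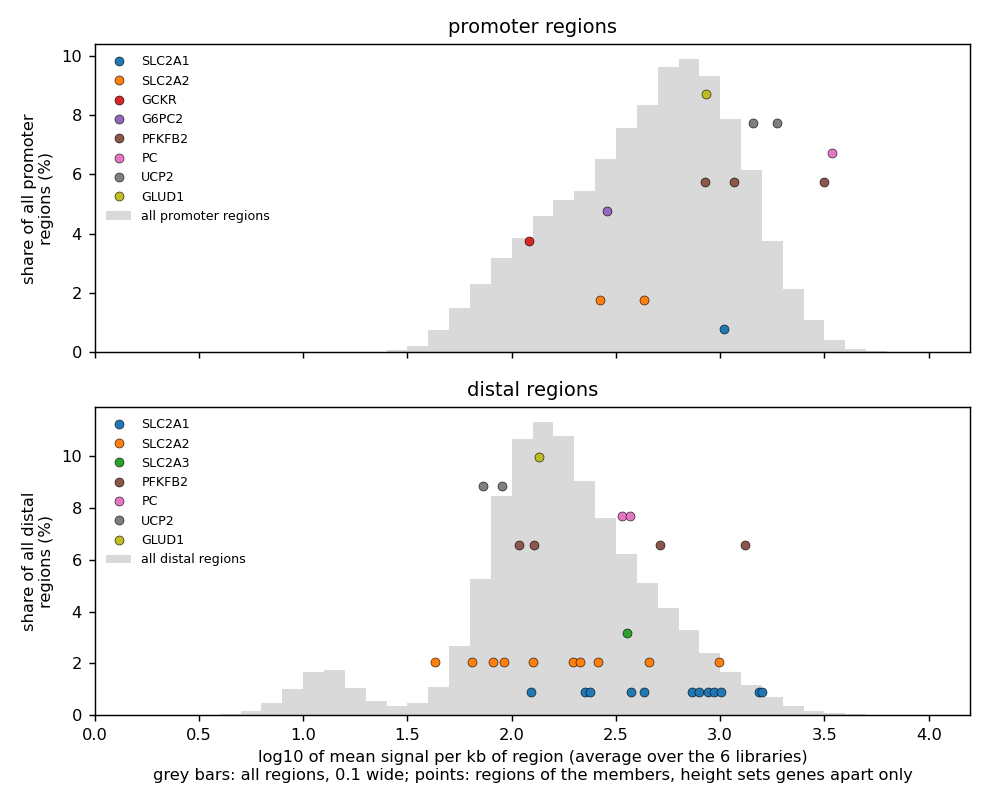
Mean signal per kb of region (x axis, log10, average over the 6 libraries) of promoter regions (top) and distal regions (bottom). Grey bars give the share of all such regions in steps of 0.1 (y axis, %), and points the members' regions, coloured by gene at heights that only set the genes apart. The promoter medians are 944 per kb for the members and 507 for all promoter regions.

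The fold change in the table moved with the signal. Over all regions the median log2 fold change was 0.29 where the mean signal was under 50. It was 0.09 from 50 to 100, -0.06 from 100 to 500, -0.12 from 500 to 1000 and -0.11 in regions at 1000 or more. Both far upstream rises of SLC2A2, with mean signals under 50, lie where positive values were usual, and their values without this trend were 1.81 and 1.47. The rises at PFKFB2 and at the SLC2A2 promoter and the falls at SLC2A1 had mean signals above 100, where the medians of all regions were near or below 0. Without the trend the large fall upstream of SLC2A1 was -0.90 and the rise at the SLC2A2 promoter 0.96, both still called.

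**Figure D4:**
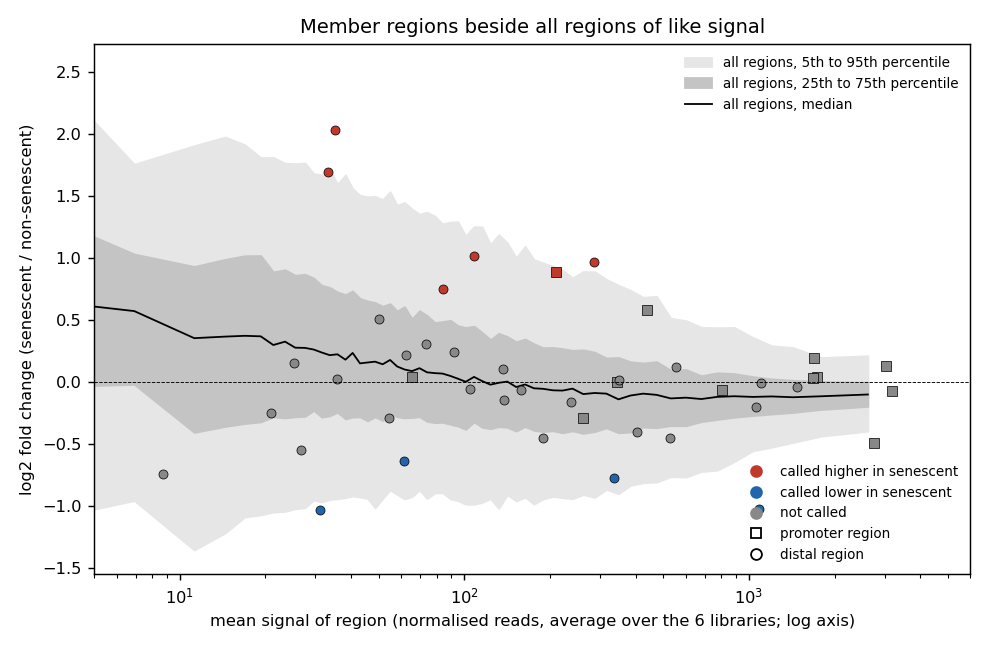
Log2 fold change (y axis, senescent over non-senescent) against mean signal (x axis, normalised reads, log axis) for the 44 regions, with squares for promoter and circles for distal regions. Bands show the 5th to 95th and the 25th to 75th percentile of all regions of like signal and the line their median, in 60 steps. The fall upstream of SLC2A1 at a mean signal of 1088 lies below the wider band.

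Of the 13 motifs, the CCAAT box had the largest difference in share from other regions. In 300 bp around the middle, CCAAT or its reverse was present in 9 of the 12 promoter regions (75%), against 24.2% of all promoter regions, and in 16 of the 32 distal regions (50.0%), against 30.1% of all distal regions. The median GC content was 56.5% in the members' promoter regions and 62.2% in all promoter regions, and the part of base composition in the shares of motifs was not tested. The GC box was in 8 of the 12 (66.7%) against 55.6%. The AP-1 site was in 0 of 12 promoter regions against 4.51%, and in 7 of 32 distal regions (21.9%) against 11.1%. Among these the first far upstream region of SLC2A2 and the region 8084 bp into PC were called higher, and the others were not called. The MAF site, bound by the beta cell factor MAFA and its relatives, was in 1 of 12 promoter regions, that of SLC2A2, against 15.9%, and in 12 of 32 distal regions (37.5%) against 27.9%. Among these distal regions both far upstream regions of SLC2A2 and the same region in PC were called higher. Those 6108 bp into SLC2A1 and 14562 bp into PFKFB2 were called lower. Motif shares among all called regions were not taken. The E-box read by glucose-responsive factors was in 1 of 12 promoter regions, that of PC, against 6.62%, and in 3 of 32 distal regions against 4.95%. Matches are a description of the letters and do not show binding.

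The wider pathway was read from 7 lists of 91 other genes of transport, glycolysis, pyruvate and glutamate metabolism, gluconeogenesis, uncoupling and glucose response. Of the 82 with a promoter region, 4 (4.88%) had one called higher and 9 (10.98%) one called lower, and of the 72 with a distal region, 29 (40.3%) had one called higher and 21 (29.2%) one called lower. These shares are near the backgrounds of 4.47%, 11.0%, 42.2% and 29.7% given above. The genes named next are the 10 with the largest change among those with a called promoter region. A called region was often a faint one beside a stronger promoter region of the same gene that was not called. Values are log2 fold changes.

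Of the 27 genes with a promoter region in the list of hexokinases, glycolysis and lactate, 2 (7.41%) had one called higher and 5 (18.5%) one called lower. Over all genes these shares were 4.47% and 11.0%, and the difference was not tested. At SLC16A1, the lactate and pyruvate transporter of the cell membrane, the 1 promoter region fell with -0.89 (SE 0.083, adjusted p 9.59e-25) at a mean signal of 924. LDHA, which makes lactate from pyruvate, had a region at a mean signal of 634 that fell with -0.95 (SE 0.088, adjusted p 4.79e-25), while its stronger region, at 1377, had -0.21 (SE 0.061) and was not called. Both are genes that mature beta cells keep low. Both promoter regions of HK1, a hexokinase of high affinity, fell, with -1.46 (SE 0.27) at a mean signal of 52.8 and -0.60 (SE 0.22) at 92.0. PFKFB3, a relative of PFKFB2, had 1 called region of 5, with -1.07 (SE 0.30) at a mean signal of 44.9, and its strongest, at 754, had 0.15 (SE 0.080). The others were negative and not called, with -0.57 (SE 0.11) at 351, -0.45 (SE 0.11) at 391 and -0.41 (SE 0.22) at 79.5. At PFKP, a phosphofructokinase, the called region had -1.03 (SE 0.32) at a mean signal of 36.8 and the stronger one, at 323, had -0.07 (SE 0.11). PKLR, the pyruvate kinase of liver and red cells, had 1 promoter region, which rose with 0.73 (SE 0.088, adjusted p 3.66e-15) at a mean signal of 771.

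From the other lists, SLC5A1, a sodium-coupled glucose transporter, had a faint promoter region that rose (1.55, SE 0.38, mean signal 32.8) and a stronger one of opposite sign that was not called (-0.42, SE 0.16, mean signal 199). PDHX of the pyruvate dehydrogenase complex likewise had a faint region that rose (0.70, SE 0.24, mean signal 66.5), while its main promoter region, at 1800, had -0.0085 (SE 0.067). The single promoter regions of UCP1 of brown fat (-0.82, SE 0.17, mean signal 140.1) and of ME3, a mitochondrial malic enzyme (-0.74, SE 0.11, mean signal 352), fell.

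At distal regions of the pathway genes with a mean signal of at least 50, PFKP held both a large rise (1.97, SE 0.24) and a large fall (-1.22, SE 0.088), both given as log2 fold changes. Other large rises were at PDK4, a brake on pyruvate dehydrogenase (1.58, SE 0.28), EPAS1, a hypoxia-responsive factor (1.48, SE 0.10), and GOT2, a mitochondrial aminotransferase (1.45, SE 0.12). The other large falls were at PDK3, a relative of PDK4 (-1.36, SE 0.16), SLC25A13, the aspartate-glutamate carrier (-1.33, SE 0.15), MLXIP, a glucose-responsive factor (-1.11, SE 0.098) and ME3 (-0.94, SE 0.23). Each was called, with adjusted p of 0.000196 or less. Several of these genes held called regions of both directions. SLC25A13 also had a rise of 2.59 (SE 0.32, adjusted p 1.31e-14) at a mean signal of 49.8, just under the limit of 50, and another of 1.59 at 23.4. PDK4 also had a fall of -0.82, and EPAS1 falls of -0.64 and -0.69.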

How the data were processed

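The 3 senescent and 3 non-senescent EndoC-βH3 ATAC-seq libraries were grouped by their labels. The authors trimmed reads with Trim Galore and Cutadapt, used Bowtie2 for alignment to hg38, discarded duplicate and mitochondrial reads, corrected positions for the transposase offset, called peaks with MACS2, counted reads over the union of peaks and compared the groups with DESeq2. Versions and a filter on mapping quality are not given in the sources used here. The mean signal in the authors' deposited table is the normalised count averaged over the libraries. The log2 fold change, its standard error and the score (Wald statistic) are the deposited values, as are the p-value and adjusted p-value, which equal the Wald test and its Benjamini-Hochberg adjustment over 108542 regions when recomputed. They are used because values of single libraries were not at hand, and depth is known only as the range that the study gives over its samples.

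Regions were placed by GENCODE 44 with Python 3.11.15 and pandas 2.3.3, and sequence read with samtools 1.23.1. Intervals are 95% Wald intervals from the deposited SE. Members and gene lists were chosen with earlier results of these data known. Named regions were every promoter region of a member, its strongest distal region and every called distal region. Among pathway genes they were up to 10 with a called promoter region, by size, and 5 distal changes in each direction at a mean signal of at least 50, of which 1 is not reported here. Every other member region is summarised. Copies were sought with megablast. Steps were tested on simulated data.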

Additional observations from a re-analysis of the deposited data

How the results depend on the processing

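No paired analysis was possible because values of single libraries were not at hand, although both groups carry the same replicate numbers. For the same reason edgeR with TMM, filters on low counts, leaving out replicates and a replicate block were not run. The promoter windows of 1 and 0.5 kb for distal regions were added after seeing the data. Depth limits the weak regions most, since 8 of the 32 distal regions had a mean signal under 50.

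The 1 promoter region called higher became 4 without the fold limit, 0 by the test that the fold change exceeds 1.5, and 2 with either trend, on mean signal or GC content, removed. The 0 promoter regions of members called lower became 2 without the fold limit, against 34.7% of all promoter regions, and 2 with start sites of all gene types. The latter were the regions 6108 bp into SLC2A1 and 14562 bp into PFKFB2, counted as distal elsewhere here. The promoter median of 0.04 became 0.14 with the trend on mean signal removed. The 5 distal regions called higher became 3 by that test, 3 at a mean signal of at least 50, 3 within 50 kb and 2 with start sites of all gene types, where only 10 regions were left. The 4 called lower became 2 at an adjusted p under 0.01, 8 without the fold limit, 1 by that test, 3 at a mean signal of at least 50, 6 of 36 regions with canonical start sites and 0 with start sites of all gene types. Of all distal regions near a gene, 4.43% were called higher and 2.01% lower by that test, and 19.7% lower without the fold limit. Shares over all regions were not taken under the other settings named above. For named regions, direction could turn only where the fold change itself was altered, by centring on the median of all regions or by removing a trend. A mean signal of at least 50 only left regions out, so that the 25 values under it could change neither direction nor call. The tally that follows includes values that were fixed in this way. Of 193 values for 28 named regions under 7 settings, 167 kept direction and call, 8 lost the call and 7 gained it. The other 11 changed sign, all at regions that were not called. With the trend on mean signal removed these were the strongest distal regions of SLC2A1 (0.077) and SLC2A2 (0.12), and the promoter regions of GCKR (-0.052), G6PC2 (0.14) and PFKFB2 (0.026 at the start site and 0.053 upstream of it). With the trend on GC content removed they were the strongest distal regions of SLC2A1 (0.12) and PFKFB2 (-0.065) and the 3 promoter regions of PFKFB2 (0.043, 0.017 and -0.040). The cause was not tested.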
